A study of Homo sapiens with 12 samples.

Results

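The genes described here make, break down and control polyamines. They were chosen by symbol from a list of 10 genes, and all 10 were found among the 28576 genes of a poly(A) RNA-seq table from SHEP cells. The list was drawn up with earlier results of these data known, so its counts and medians below are descriptions. SHEP is a human neuroblastoma line of the flat, substrate-adherent kind. Every library came from cells that carried a fusion of MYCN to the estrogen receptor ligand domain (MYCN-ER), which 4-hydroxytamoxifen (OHT, 200 nM) activates, and a hairpin RNA against TCEAL1 that doxycycline (Dox, 1 µg/ml) induces. The 12 libraries form 4 groups of 3: Ctrl with neither compound, OHT with MYCN-ER activated, Dox with the hairpin induced, and OHT_Dox with both. All libraries analysed here thus share the fusion and the hairpin, and none came from cells with another hairpin. Effects of OHT or Dox themselves therefore cannot be told apart from those of the activated fusion or the induced hairpin. The labels give no treatment times and do not say whether the libraries of a group came from separate cultures. The p-values therefore measure only the spread between these libraries, which may be technical.

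Polyamines are small, positively charged molecules that bind RNA and DNA and that dividing cells need. Ornithine decarboxylase (ODC1) turns ornithine into putrescine, S-adenosylmethionine decarboxylase (AMD1) makes the aminopropyl donor, and spermidine synthase (SRM) and spermine synthase (SMS) add aminopropyl groups to give spermidine and spermine. The antizymes OAZ1 and OAZ2 bind the ODC1 protein and send it to the proteasome, and the antizyme inhibitor AZIN1 resembles ODC1 and binds the antizymes in its place. On the breakdown side, SAT1 acetylates spermidine and spermine, PAOX oxidises the acetylated forms, and SMOX oxidises spermine directly. ODC1 is a textbook target of MYC proteins, which bind the E-box CACGTG, and polyamine synthesis is a drug target in neuroblastoma with amplified MYCN.

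Start regions of 3 synthesis genes are shown because the libraries contrast active with inactive MYCN-ER. They were read from the RefSeq windows of 250 bases before to 50 bases after each annotated start (GRCh38.p14), in which 7 of the 10 genes matched by symbol. Each is printed 5′ to 3′ on the gene's own strand, and capitals mark CACGTG, which reads the same on both strands. The SRM stretch is chr1:11060019-11060268 on the minus strand, the 250 bases before its start. The ODC1 stretch is chr2:10447983-10448120 on the minus strand, and it ends 30 bases after an inner RefSeq start. It lies inside intron 1 of the transcript model whose first exon is furthest upstream. The AMD1 stretch is chr6:110874535-110874784 on the plus strand, before the annotated start at 110874785. AMD1 also had windows for starts at 110874784 and, further upstream, 110814617.
SRM: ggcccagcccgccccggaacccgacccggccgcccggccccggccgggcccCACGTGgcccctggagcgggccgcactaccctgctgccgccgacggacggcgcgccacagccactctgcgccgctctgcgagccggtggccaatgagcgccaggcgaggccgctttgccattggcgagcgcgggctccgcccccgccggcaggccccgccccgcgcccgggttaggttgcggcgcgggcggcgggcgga
ODC1: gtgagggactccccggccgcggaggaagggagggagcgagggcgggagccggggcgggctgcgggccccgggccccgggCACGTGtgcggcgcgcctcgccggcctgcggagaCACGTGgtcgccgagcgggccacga
AMD1: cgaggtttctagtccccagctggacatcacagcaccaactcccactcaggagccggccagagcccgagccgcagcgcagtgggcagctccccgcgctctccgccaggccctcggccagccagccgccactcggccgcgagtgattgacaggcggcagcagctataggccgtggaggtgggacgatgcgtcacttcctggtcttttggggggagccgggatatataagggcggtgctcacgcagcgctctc
SRM held 1 copy, beginning at position -199 with the start as position 0. ODC1 held 2 copies, at -29 and 5, around its inner start, while the window of its outer start held 0. No copy was found in the windows of AMD1, SMS, OAZ1, OAZ2 or SAT1. Over all windows of 300 bases, 2548 of 35116 (7.256%) held the word, and 2396 of 27305 genes (8.775%) had it in at least 1 window. A match is a description of the letters, and binding was not measured in these libraries.

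The libraries held between 44466458 and 57694970 reads, recovered from the deposited CPM (reads of a gene scaled to a total of 1000000 per library). TCEAL1, the hairpin's target, stood between 8.23 and 10.7 CPM in the 6 libraries without Dox and between 1.73 and 2.74 CPM in the 6 with Dox. MYCN, whose reads may include the fusion, ranged from 376 to 644 CPM and was lower with OHT under Dox, by a log2 difference of -0.34 ± 0.10 (SE; limma adjusted p = 0.0191). MYC fell with OHT in both backgrounds, from at least 20.5 CPM in every library without OHT to at most 11.9 CPM. It also fell with Dox, with log2 changes of -0.44 ± 0.10 alone (adjusted p = 0.0130) and -0.70 ± 0.10 under OHT (adjusted p = 2.57e-04). The MYCN call was lost without Dox replicate 3 (-0.31, adjusted p = 0.0682), without OHT_Dox replicate 2 (-0.26, adjusted p = 0.105) and with DESeq2 (-0.31, adjusted p = 0.0866), and that of MYC with Dox alone without Ctrl replicate 2 or 3 or Dox replicate 2 or 3 (adjusted p between 0.0506 and 0.0747). The summed level of 10 markers of mesenchymal neuroblastoma was 5139 to 5502 CPM in Ctrl, 4795 to 5175 in OHT, 4073 to 4306 in Dox and 3913 to 4243 in OHT_Dox, with MEOX2 under 1 CPM throughout. VIM was the largest part of that sum, at 2223 to 3083 CPM over all libraries. SNAI2 stood at 8.91 to 10.1 CPM in Ctrl and at 3.28 to 4.27 CPM in Dox. COL1A1 stood at 863 to 969 CPM in Ctrl and at 544 to 602 CPM in Dox, and CD44 at 372 to 380 and 306 to 335 CPM. FOSL1 stood at 177 to 194 CPM in Ctrl and at 138 to 156 CPM in OHT. Not every marker moved with the sum. PRRX1 stood at 62.3 to 71.0 CPM in Ctrl and at 103 to 114 CPM in OHT. YAP1 stood at 84.5 to 101 CPM in Ctrl and at 103 to 112 CPM in Dox. Under OHT the groups overlapped, at 84.5 to 92.7 CPM in OHT and 84.0 to 97.9 CPM in OHT_Dox. Of the adrenergic markers, HAND2 stood at 57.1 to 64.1 CPM in the 6 libraries with OHT and at 47.6 to 53.9 CPM in the 6 without. GATA3 ranged from 7.30 to 10.1 CPM and ISL1 from 8.74 to 12.4 CPM, highest in the 3 libraries with Dox alone, while PHOX2A, CHGA and DBH stayed under 1 CPM. Epithelial markers summed to at most 3.26 CPM, haematopoietic ones to at most 0.560 and endothelial ones to at most 0.337. Fewer cells of a type and less RNA per cell cannot be told apart in such bulk libraries. Marker differences came with Dox for the mesenchymal sum, SNAI2, COL1A1, CD44 and, without OHT, YAP1. With OHT they came for HAND2, PRRX1 and FOSL1. The part that these marker differences have in the results below was not tested.

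With OHT, the synthesis genes that passed the test were higher and the breakdown gene that passed was lower. Against Ctrl, OHT raised ODC1 and AMD1 and lowered OAZ2 and SAT1. Under Dox, OHT raised ODC1, AMD1 and SRM and lowered OAZ2, AZIN1 and SAT1. A gene was called where limma's p-value on log2(CPM + 0.5), adjusted over all 18674 tested genes by the Benjamini-Hochberg method, was below 0.05. All 10 genes passed the filter on low values. Of the 4 synthesis genes, 2 rose and 0 fell with OHT alone, and 3 rose and 0 fell with OHT under Dox. Of the 3 breakdown genes, SAT1 alone fell in each comparison and 0 rose. Over all 10 genes this makes 2 higher and 2 lower in the first comparison, where 12.6% of all tested genes were called higher and 8.79% lower. In the second it makes 3 higher and 3 lower, against 11.5% and 14.5% of all tested genes. The median log2 change was 0.19 for the synthesis genes and -0.43 for the breakdown genes with OHT alone, and -0.01 over all tested genes. With OHT under Dox these medians were 0.25, -0.25 and -0.03. The median of the 3 breakdown genes is in both cases the value of PAOX, which was not called and had 24 to 52 reads per library.

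**Figure D1:**
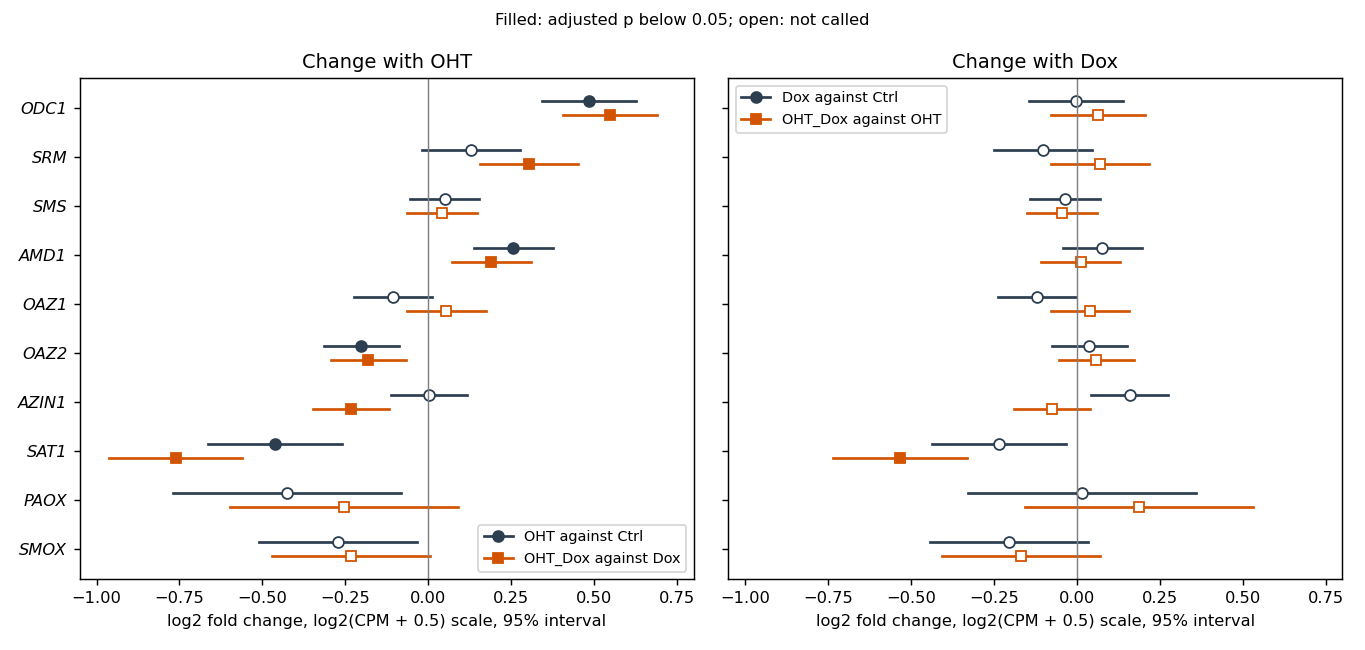
Log2 fold changes of the 10 polyamine genes on the log2(CPM + 0.5) scale, with 95% intervals from limma, for OHT at left and Dox at right; filled symbols passed an adjusted p of 0.05. ODC1 lies at 0.48 and 0.55 with OHT and near 0 with Dox, and SAT1 is the gene with a filled symbol in the right panel, at -0.53.

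ODC1 (ENSG00000115758), which makes putrescine, stood at 263, 322 and 268 CPM in Ctrl and at 378, 418 and 393 CPM in OHT. Its values were 294, 287 and 268 CPM with Dox and 398, 432 and 411 CPM with both compounds. Every one of the 6 libraries with OHT lay above every one of the 6 without, and the Dox libraries fell within the range of Ctrl. The log2 change with OHT was 0.48 ± 0.07 (SE; 1.40-fold, limma adjusted p = 3.02e-05) alone and 0.55 ± 0.07 (1.46-fold, adjusted p = 6.72e-06) under Dox. With Dox alone the log2 difference had a 95% interval of -0.14 to 0.14. Under OHT, the interval of the Dox difference was -0.08 to 0.20. The ODC1 response to OHT differed between the backgrounds by 0.06 ± 0.10, with an interval of -0.14 to 0.27 (limma adjusted p = 0.788). The E-box copies printed for ODC1 lie before and after its inner start, in an intron only of the model that begins further upstream. Gene totals do not say which start was used.

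AMD1 (ENSG00000123505), which supplies the aminopropyl donor, stood at 130.1, 136 and 123 CPM in Ctrl and at 155, 152 and 157 CPM in OHT. Its values were 140.1, 143 and 128 CPM with Dox and 152, 164 and 152 CPM with both compounds. All libraries with OHT were again above all those without. The log2 change was 0.26 ± 0.06 (SE; limma adjusted p = 0.00285) with OHT alone and 0.19 ± 0.06 (adjusted p = 0.0181) under Dox. The second call was lost without Dox replicate 3 (0.14, adjusted p = 0.112) or OHT_Dox replicate 2 (0.15, adjusted p = 0.0789), and its value was 0.31 after a trend with GC content and length was removed. The Dox difference of AMD1 was 0.08 ± 0.06 alone (adjusted p = 0.410) and 0.01 ± 0.06 under OHT (adjusted p = 0.959), and neither passed.

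SRM (ENSG00000116649), which makes spermidine, stood at 199.8, 220.5 and 239.7 CPM in Ctrl and at 230.3, 242 and 249 CPM in OHT. Its values were 202, 199.9 and 211 CPM with Dox and 238, 237 and 284 CPM with both compounds. Ctrl and OHT overlapped, whereas all OHT_Dox libraries were above all Dox libraries. OHT under Dox raised SRM by 0.30 ± 0.07 log2 units (SE; limma adjusted p = 0.00339), and with OHT alone the difference was 0.13, with an interval of -0.02 to 0.28 (adjusted p = 0.210). The difference between these responses was 0.17 ± 0.10 and did not pass (adjusted p = 0.419). OHT_Dox replicate 3, the highest library for SRM, also stood apart in base composition: its deviations from the group mean had a Spearman correlation of 0.53 with GC content across genes, where those of OHT_Dox replicate 2 had -0.50 and the other libraries lay between -0.19 and 0.29. Without OHT_Dox replicate 3 the SRM change under Dox was 0.22 (adjusted p = 0.0267), and without it and Dox replicate 1 it was 0.21 and no longer passed (adjusted p = 0.0661). With the GC and length trend removed it was 0.19 (adjusted p = 0.0161).

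SMS (ENSG00000102172), which makes spermine, did not pass in any comparison. Its levels were 471, 497 and 475 CPM in the Ctrl libraries, 476, 514 and 503 with OHT, 485, 469 and 454 with Dox and 485, 497 and 466 with both. All groups overlapped. The log2 difference with OHT had a 95% interval of -0.06 to 0.15 alone (limma adjusted p = 0.541) and of the same bounds under Dox (adjusted p = 0.612).

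**Figure D2:**
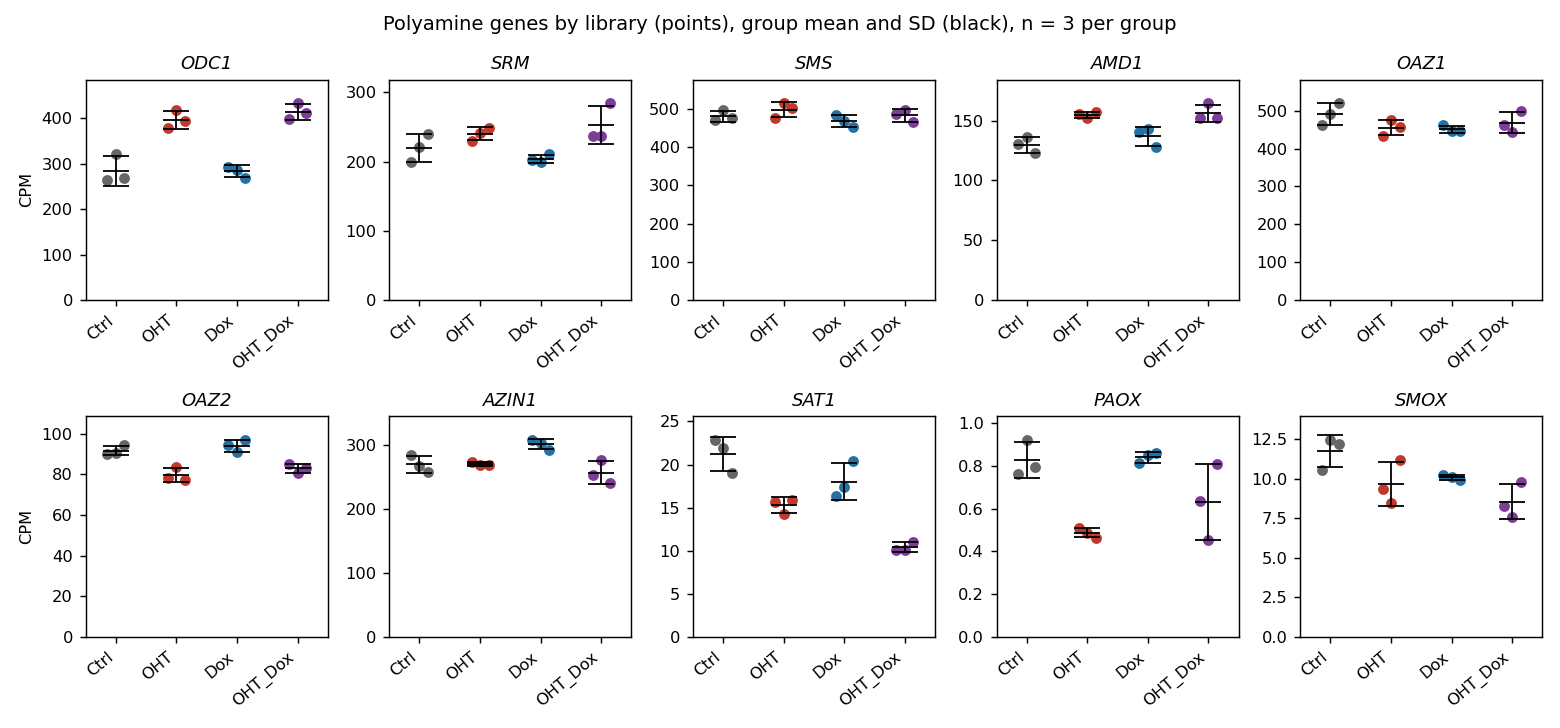
CPM of each of the 10 polyamine genes in the 12 libraries, with 1 point per library, black bars for the group mean and SD, and a linear axis of its own for each gene. The OHT and OHT_Dox points of ODC1 and AMD1 lie above, and those of OAZ2 and SAT1 below, every point of Ctrl and Dox.

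Among the genes that act on the ODC1 protein, OAZ2 (ENSG00000180304), an antizyme, fell with OHT in both backgrounds. The Ctrl libraries held 90.1, 90.6 and 94.3 CPM of it and the OHT libraries 78.2, 83.5 and 77.3 CPM. Its values were 94.4, 91.1 and 97.0 CPM with Dox and 85.0, 80.6 and 83.3 CPM with both compounds. Every library with OHT was below every library without it. The log2 change was -0.20 ± 0.05 (SE; limma adjusted p = 0.0108) with OHT alone and -0.18 ± 0.05 (adjusted p = 0.0170) under Dox. The first call was lost without OHT replicate 3 (-0.18, adjusted p = 0.0572). The second missed the threshold with TMM scaling (-0.15, adjusted p = 0.0561), with edgeR on the recovered reads (-0.15, adjusted p = 0.0602), and without Dox replicate 1, Dox replicate 3 or OHT_Dox replicate 2 (adjusted p between 0.0516 and 0.0759).

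OAZ1 (ENSG00000104904), the more abundant antizyme, did not pass in any comparison. Its levels were 461, 491 and 519 CPM in the Ctrl libraries, 434, 475 and 458 with OHT, 461, 446 and 445 with Dox and 463, 444 and 498 with both. The Dox libraries lay just below those of Ctrl, and the other groups overlapped. The log2 difference was -0.11 ± 0.06 with OHT alone (SE; limma adjusted p = 0.199) and -0.12 ± 0.06 with Dox alone (adjusted p = 0.180). Antizyme synthesis depends on a ribosomal frameshift, which RNA levels do not measure.

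AZIN1 (ENSG00000155096), the antizyme inhibitor, passed the test with OHT under Dox and did not pass with OHT alone. The Ctrl libraries held 284, 268 and 258 CPM of it and the OHT libraries 273, 269 and 269 CPM. Its values were 308, 304 and 293 CPM with Dox and 253, 276 and 241 CPM with both compounds. The Dox libraries were the highest of all and overlapped with no other group. AZIN1 fell by 0.23 ± 0.05 log2 units with OHT under Dox (SE; limma adjusted p = 0.00381), while with OHT alone the difference had an interval of -0.11 to 0.12 (adjusted p = 0.987). The responses differed by -0.23 ± 0.08, which did not pass (adjusted p = 0.222) except without Ctrl replicate 1 (-0.27, adjusted p = 0.0477). With Dox alone the difference was 0.16 ± 0.05 (adjusted p = 0.0744), and it passed without Ctrl replicate 1 (0.20, adjusted p = 0.0260). With the GC and length trend removed, the Dox difference was 0.04 (adjusted p = 0.617) and the difference of the responses -0.10 (adjusted p = 0.616). The change with OHT under Dox was -0.17 (adjusted p = 0.0826) without Dox replicate 1 and OHT_Dox replicate 3, and -0.14 (adjusted p = 0.0290) with the GC and length trend removed. AZIN1 shares exons with its antisense gene AZIN1-AS1, which averaged 4.32 CPM.

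SAT1 (ENSG00000130066), the acetyltransferase that starts polyamine breakdown, had its lowest level with both compounds. The Ctrl libraries held 22.8, 21.9 and 19.0 CPM of it and the OHT libraries 15.6, 14.2 and 15.9 CPM. Its values were 16.3, 17.4 and 20.4 CPM with Dox and 10.1, 10.0 and 11.1 CPM with both compounds. The OHT_Dox libraries were below all others, the OHT libraries were below all Dox libraries, and Dox overlapped with Ctrl. The log2 change with OHT was -0.46 ± 0.10 (SE; limma adjusted p = 0.00163) alone and -0.76 ± 0.10 (adjusted p = 9.12e-06) under Dox. SAT1 alone among the 10 genes passed a test of Dox: under OHT it fell by 0.53 ± 0.10 (adjusted p = 0.00356), to 0.691 times the OHT level, whereas with Dox alone the difference was -0.23 ± 0.10 (adjusted p = 0.128). DESeq2 on the recovered reads called the latter, at -0.29 (adjusted p = 0.0290). The responses to OHT differed between backgrounds by -0.30 ± 0.14, which did not pass (adjusted p = 0.305). SAT1 mRNA is known to be regulated by splicing and decay, and gene totals do not separate its isoforms.

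PAOX (ENSG00000148832), the oxidase of acetylated polyamines, lay close to the filter on low values. Its levels were 0.764, 0.922 and 0.797 CPM in the Ctrl libraries, 0.508, 0.488 and 0.465 with OHT, 0.813, 0.851 and 0.860 with Dox and 0.635, 0.455 and 0.810 with both, which is 24 to 52 reads per library. The OHT libraries lay below those of Ctrl, and the log2 difference of -0.43 ± 0.16 did not pass (SE; limma adjusted p = 0.0728). With a pseudocount of 0.1 the value was -0.66, and on the recovered reads it was -0.77 with edgeR and with DESeq2, none of which passed (adjusted p between 0.0709 and 0.0754). The difference under Dox was -0.25 (adjusted p = 0.282). PAOX shares exons on the same strand with AL360181.3, a gene model at 71.5 CPM, so its count is uncertain.

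SMOX (ENSG00000088826), the spermine oxidase, had lower means with either compound, and none of its differences passed. Its levels were 10.6, 12.5 and 12.2 CPM in the Ctrl libraries, 9.38, 8.46 and 11.2 with OHT, 10.2, 10.1 and 9.92 with Dox and 8.31, 7.58 and 9.78 with both. OHT overlapped with Ctrl, and the OHT_Dox libraries were below those of Dox. The log2 difference was -0.27 ± 0.11 with OHT alone (SE; limma adjusted p = 0.0995) and -0.23 ± 0.11 under Dox (adjusted p = 0.145). The first passed without OHT replicate 3 (-0.38, adjusted p = 0.0388), and the second with the GC and length trend removed (-0.32, adjusted p = 0.0223).

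For Dox alone, 0 of the 10 genes were called higher and 0 lower, where 5.68% of all tested genes were higher and 2.61% lower. The split over all genes was 1061 higher and 487 lower as deposited, 531 and 741 with TMM scaling, 539 and 782 with edgeR, 923 and 1171 with DESeq2, and 361 and 731 with the GC and length trend removed. It also rested on single libraries, with 2274 higher and 906 lower without Ctrl replicate 1 and 85 higher and 112 lower without Dox replicate 2. Without Ctrl replicate 1, AZIN1 was called higher with Dox. For Dox under OHT, 0 were higher and 1, SAT1, was lower, against 0.509% and 1.59% of all tested genes. Those shares stand for 95 higher and 297 lower genes, and they were 32 and 172 without OHT_Dox replicate 1 and 41 and 155 without OHT replicate 1. For the difference of the OHT responses, 0 of the 10 genes and 0% of all tested genes in either direction passed with limma, although 2879 genes had an unadjusted p below 0.05. There edgeR also called 0 genes and DESeq2 called 1, while without Ctrl replicate 1 limma called 272 higher and 769 lower, AZIN1 among the latter. The comparisons of OHT and of Dox with Ctrl share the Ctrl libraries, so their values are not independent. With both compounds, the log2 difference from Ctrl was 0.55 for ODC1, 0.27 for AMD1 and 0.20 for SRM, and the sums of the differences with each compound alone were 0.48, 0.33 and 0.03. For SAT1 it was -0.996, against a sum of -0.70, and for AZIN1 it was -0.07, against 0.16. For OAZ1 it was -0.07, against -0.23, for OAZ2 -0.14, against -0.16, and for SMS 0.006, against 0.014. PAOX stood at -0.24, against -0.41, and SMOX at -0.44, against -0.48. Each gap is the same quantity as the difference of the OHT responses, which passed for 0 of the 10 genes with all libraries.

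Per kilobase of exon, the antizyme OAZ1 was the most abundant of the 10 mRNAs in Ctrl, at 427 ± 25.3 CPM per kb (SD, n = 3). SMS followed at 262 ± 7.77, SRM at 174 ± 15.8 and ODC1 at 96.0 ± 10.98 CPM per kb. Each of these differed from its neighbour by more than the SDs. The length used is that of all annotated exons of a gene together, which may differ from that of the transcripts present. The SDs leave this out. Before division by length, OAZ1 (461 to 519 CPM) and SMS (471 to 497 CPM) overlapped in Ctrl. AMD1, at 123 CPM or more, was then above OAZ2, at 97.0 CPM or less, in every library. AZIN1 stood at 55.5 ± 2.71, OAZ2 at 47.4 ± 1.19 and AMD1 at 37.2 ± 1.97 CPM per kb. The breakdown genes were the lowest, with SAT1 at 12.6 ± 1.18, SMOX at 4.66 ± 0.402 and PAOX at 0.445 ± 0.0448 CPM per kb. With OHT the order of OAZ2 and AMD1 turned, to 41.2 ± 1.73 and 44.4 ± 0.741 CPM per kb, and ODC1 rose to 134 ± 6.83 CPM per kb. In OHT_Dox those 2 genes lay within their spread of each other, at 42.9 ± 1.13 and 44.8 ± 2.03 CPM per kb.

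**Figure D3:**
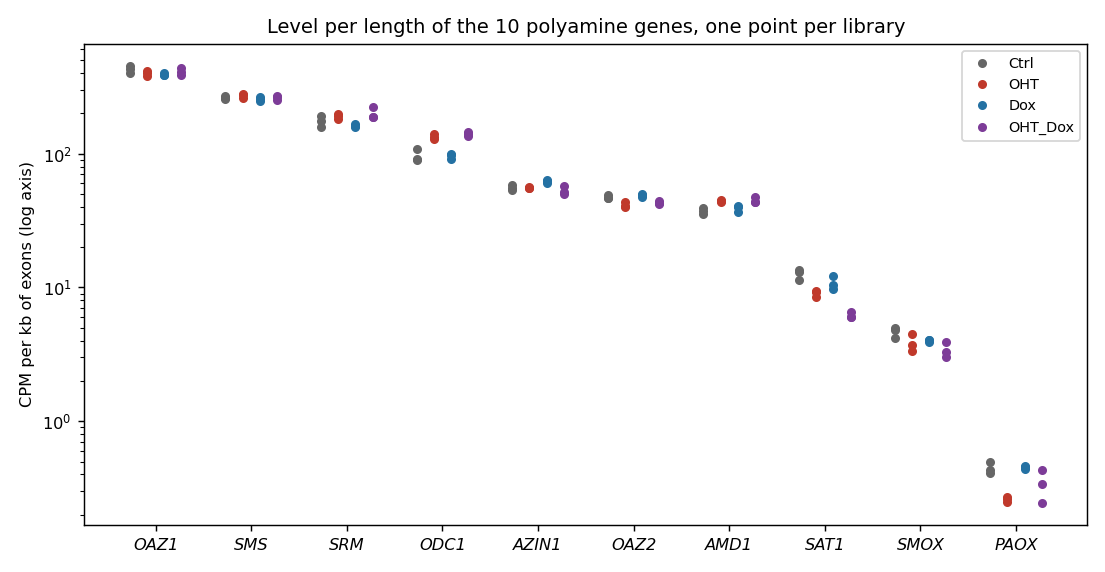
CPM per kilobase of exon of the 10 polyamine genes on a log axis, with 1 point per library coloured by its group. The Ctrl means span from 0.445 for PAOX to 427 for OAZ1, and the synthesis genes and antizymes lie above the breakdown genes in each group.

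Of 27 further genes of the pathway, 26 passed the filter. With OHT alone 7 of them rose and 1 fell, with OHT under Dox 8 rose and 1 fell, and with Dox 1 rose alone and 1 fell under OHT. Over all tested genes, 12.6% were higher and 8.79% lower with OHT alone, 11.5% and 14.5% with OHT under Dox, 5.68% and 2.61% with Dox alone, and 0.509% and 1.59% with Dox under OHT. Without Ctrl replicate 2 or OHT replicate 1, 4 rose with OHT alone, and without Dox replicate 1 and OHT_Dox replicate 3, 5 rose with OHT under Dox. MAT2A, which makes the S-adenosylmethionine that AMD1 uses, had the largest rise among those called with OHT alone, from 264 ± 14.3 to 467 ± 48.3 CPM (SD, n = 3). Its log2 change was 0.82 ± 0.08 (SE; limma adjusted p = 3.24e-07) alone and 0.75 ± 0.08 (adjusted p = 1.01e-06) under Dox. MAT2A shares exons with GGCX on the opposite strand (80.9 CPM), and the strand setting of the counting is not stated. MAT1A, the form typical of liver, rose by 0.79 ± 0.18 under Dox (adjusted p = 0.00281) from a level of 2.59 CPM. With OHT alone its difference was 0.47 and did not pass (adjusted p = 0.0723). SLC3A2, the heavy chain of amino acid transporters with a reported part in polyamine export, rose from 129.6 ± 7.68 to 178 ± 5.32 CPM. Its log2 changes were 0.46 ± 0.06 and 0.62 ± 0.06 (adjusted p = 2.62e-05 and 7.53e-07). SLC18B1, a vesicular polyamine transporter, rose by 0.49 ± 0.08 and 0.41 ± 0.08 (adjusted p = 2.68e-04 and 0.00107).

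Genes that return methylthioadenosine, the by-product of SRM and SMS, to methionine also held calls. ENOPH1 rose by 0.27 ± 0.06 with OHT alone and 0.22 ± 0.06 under Dox (SE; limma adjusted p = 0.00157 and 0.00704). MTAP, the first enzyme of that route, rose by 0.49 ± 0.15 with OHT alone (adjusted p = 0.0287), and without Ctrl replicate 2 the value was 0.32 (adjusted p = 0.171). Under Dox its difference was 0.36 and did not pass (adjusted p = 0.0937). MTAP ranged from 2.78 to 7.07 CPM over all libraries. Per kilobase of exon its Ctrl mean was 0.283 CPM, below that of PAOX at 0.445. MRI1 rose by 0.26 ± 0.07 under Dox (adjusted p = 0.00837), and both MTAP and MRI1 share exons with a gene on the same strand. In the supply of precursors, the arginine importer SLC7A1 (0.20 ± 0.07, adjusted p = 0.0491) and the mitochondrial ornithine carrier SLC25A15 (0.30 ± 0.09, adjusted p = 0.0274) passed with OHT alone. The SLC7A1 libraries of OHT and Ctrl overlapped. Under Dox the differences were -0.05 for SLC7A1 and 0.19 for SLC25A15 and did not pass (adjusted p = 0.628 and 0.144). Without Ctrl replicate 2 the SLC7A1 value with OHT alone was 0.12 (adjusted p = 0.244), and with the GC and length trend removed it was 0.11 (adjusted p = 0.136).

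EIF5A, the translation factor that receives hypusine from spermidine, and DOHH, which completes hypusine, rose with OHT under Dox by 0.16 ± 0.05 and 0.42 ± 0.09 (SE; limma adjusted p = 0.0411 and 0.00119). With OHT alone their differences were -0.004 and 0.05 and did not pass (adjusted p = 0.973 and 0.730). DOHH stood at 42.7 to 48.6 CPM in Ctrl and at 38.8 to 40.2 CPM in Dox. Its OHT_Dox libraries held 49.2, 48.5 and 62.0 CPM, with replicate 3 the highest. With the GC and length trend removed, EIF5A with OHT under Dox was at 0.10 and not called (adjusted p = 0.288), and DOHH was at 0.26 (adjusted p = 0.00544). Of the members' relatives, SAT2 fell by 0.26 ± 0.09 with OHT alone (adjusted p = 0.0444), and under Dox its difference was 0.02 (adjusted p = 0.891). AZIN2 fell by 0.50 ± 0.18 with OHT under Dox (adjusted p = 0.0467) and by 0.79 ± 0.18 with Dox under OHT (adjusted p = 0.0215), to 2.84 ± 0.0669 CPM. With OHT alone and with Dox alone its differences were 0.10 and -0.19 and did not pass (adjusted p = 0.739 and 0.535). ATP13A3, a polyamine transporter, rose by 0.39 ± 0.09 with Dox alone (adjusted p = 0.0126), and by 0.20 (adjusted p = 0.0415) with the GC and length trend removed. Under OHT its Dox difference was 0.006 (adjusted p = 0.984). For SAT2, SLC7A1, SLC25A15, MTAP, EIF5A, AZIN2 and ATP13A3, leaving out at least 1 library of the groups compared ended the call.

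**Figure D4:**
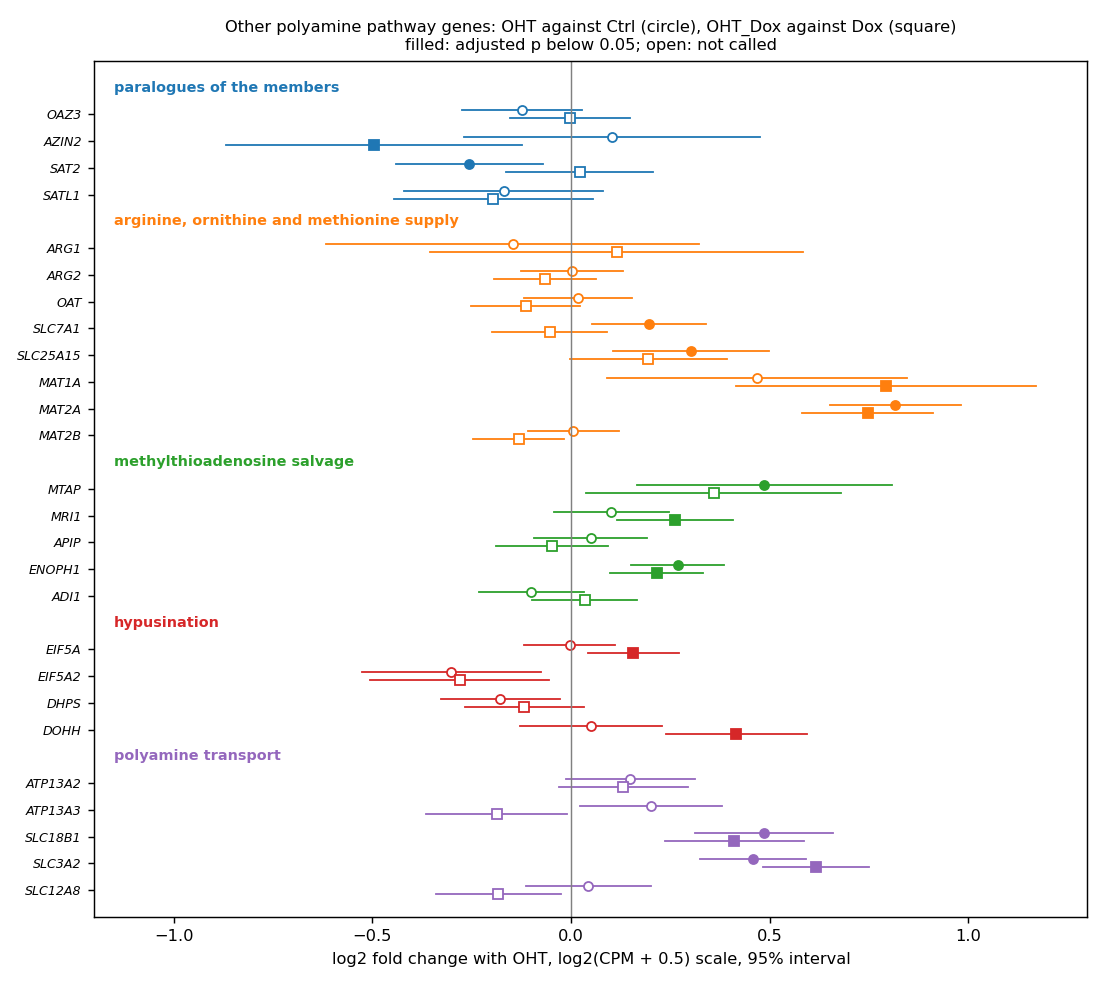
Log2 fold changes with OHT alone and with OHT under Dox for the tested genes of the wider polyamine pathway, with 95% intervals from limma and filled symbols for an adjusted p below 0.05. MAT2A lies at 0.82 and 0.75 and SLC3A2 at 0.46 and 0.62.

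Over the differences of OHT, Dox and OHT_Dox from Ctrl, the genes most like ODC1 among 11625 genes compared were ASMTL, HILPDA and SLC25A38. Their root mean square distances from its 3 log2 values were 0.0192, 0.0216 and 0.0224. The genes nearest to SAT1 were FAM43A at 0.0850, the kinase gene PIM1 at 0.118 and VXN at 0.119. The likeness rests on 4 group means and is a description.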

How the data were processed

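Poly(A) RNA of 12 SHEP libraries (4 groups of 3) was sequenced from directional libraries, per the labels' protocols. The authors deposited CPM, in which every library sums to 1000000, for 28576 genes, of which 6873 have no symbol. Tools listed without role or version, per the submitters' processing notes, are featureCounts, STAR, Bowtie, Bowtie2, DRAGEN and FastQC, beside the mm10 and hg19 builds, and the strand setting is not given in the sources used here. All 342912 deposited values (100%) were whole reads within 0.01 reads, giving 44466458 to 57694970 reads per library.

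Genes with at least 0.5 CPM in at least 3 libraries (18674) were fitted on log2(CPM + 0.5) with limma 3.58.1 in R 4.3.3, with all 12 libraries, 4 group means and a mean trend. The 5 two-sided contrasts were adjusted by the Benjamini-Hochberg method, and the script was tested on simulated data. Fold changes on this scale understate those of genes near 0.5 CPM. Alternatives were pseudocounts of 0.1 and 1, other filters, TMM scaling, edgeR 4.0.16 and DESeq2 1.42.0 on the recovered reads, only the compared groups, a replicate block, removal of a trend with GC content and length, and leaving out libraries. GENCODE release 29 gave exon lengths, GC content and overlaps (28572 genes matched), and RefSeq gave start windows.

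The members and gene lists were chosen with earlier results of these data known. Named were all 10 members, pathway genes passing in any contrast (at most 3 per list and contrast, by smallest p), TCEAL1, MYCN and MYC as checks, and the 3 genes above 5 CPM nearest to ODC1 and to SAT1 in log2 differences from Ctrl. Some adrenergic markers of the list are not reported here.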

Additional observations from a re-analysis of the deposited data

How the results depend on the processing

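ODC1 and AMD1 with OHT alone, ODC1 with OHT under Dox, and SAT1 in its 3 calls kept direction and call under all settings run, with SAT1 between -0.58 and -0.50 for Dox under OHT. The alternatives for the further pathway genes were added after seeing the data. Alternatives for single genes followed the members in every comparison. They followed the further pathway genes and the checks TCEAL1, MYCN and MYC only where these were called. Among these, 83 alternatives to a called value missed the threshold. For uncalled values, all of them of members, 7 alternatives passed the threshold and 50 changed sign. Uncalled values of further genes were not followed singly. The causes were not tested.

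Members called lower with OHT under Dox went from 3 to 1 without Dox replicate 1 and OHT_Dox replicate 3. With Dox alone, 1 member was higher with the replicate block (AZIN1 at 0.16, limma adjusted p = 0.0372) and 1 lower with DESeq2 (SAT1), and leaving out single libraries gave 0 to 1 higher. For the difference of the OHT responses the latter gave 0 to 1 lower. The replicate numbers were not taken as pairs, since only 7 of 18 same-numbered pairs correlated above 0.1 (range -0.17 to 0.33), but 9 of 12 libraries correlated best with their own number. Deviations from the group mean correlated with GC content positively in replicate 3 of all 4 groups (0.12 to 0.53) and negatively in replicates 1 and 2 of all 4. With the block, Dox alone gave 1767 genes higher and 758 lower, Dox under OHT gave 171 and 460, and no other member's call changed.

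Further pathway genes called lower with OHT alone numbered 0 with no filter and TMM scaling, 2 with the stricter filter, edgeR, DESeq2, the replicate block or the library pair left out, and 3 with the GC and length trend removed, with or without the block. Leaving out single libraries gave 4 to 8 higher and 0 to 2 lower. With OHT under Dox, 0 were lower with a pseudocount of 1 or no filter, 3 with the block, the trend removed or both, and 0 to 2 without single libraries, while the pair left out gave 5 higher. With Dox alone, the block and the pair left out gave 2 higher, DESeq2 gave 1 lower, and single libraries left out gave 0 to 3 higher and 0 to 1 lower. For Dox under OHT, DESeq2 and the block, with or without the trend removed, gave 1 higher, no filter and the pair left out gave 0 lower, and single libraries left out gave 0 to 1 in each direction. For the difference of responses they gave 0 to 2 lower.

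The values that changed sign were never called. With TMM, edgeR and DESeq2, AZIN1 with OHT was -0.00012, -0.00096 and -0.0059, OAZ2 with Dox was -0.0115, -0.0115 and -0.0115, AMD1 with Dox under OHT was -0.0090, -0.0083 and -0.0017, and the SMS difference of responses was 0.021, 0.020 and 0.026. PAOX with Dox was -0.015 with TMM and -0.028 with edgeR, and DESeq2 gave it no adjusted p. With the trend removed, with or without the replicate block, AZIN1 with OHT was -0.038, AMD1 with Dox -0.034, OAZ1 with OHT under Dox -0.041, and the differences of responses of AMD1 and SMOX 0.053 and -0.049. With the pair left out, SRM and OAZ1 with Dox under OHT were -0.016 and -0.0046, and the differences of responses of SMOX and SMS -0.048 and 0.041. Without single libraries, AZIN1 with OHT ranged from -0.031 to 0.039, ODC1 with Dox from -0.054 to 0.091 and PAOX with Dox from -0.018 to 0.067. With Dox under OHT, AMD1 ranged from -0.026 to 0.030, OAZ1 from -0.0046 to 0.078 and SRM from -0.016 to 0.11. The differences of responses ranged from -0.0034 to 0.054 for OAZ2, -0.027 to 0.12 for ODC1, -0.058 to 0.14 for SMOX and -0.041 to 0.017 for SMS.

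Over all genes, counts moved by more than 1.5 times in several settings. With OHT alone, 2512 genes were lower with the trend removed and 2675 with the block as well. With OHT under Dox, the pair left out gave 1404 higher and 1576 lower. With Dox alone, no filter gave 674 and 318, and the trend removed with the block gave 507 and 880. With Dox under OHT, no filter gave 57 higher, DESeq2 162 higher and 518 lower, the trend removed 170 and 517, the same with the block 195 and 571, and the pair left out 59 higher. Leaving out single libraries gave 32 (OHT_Dox replicate 1) to 53 (OHT_Dox replicate 3) higher in the 5 cases that moved the count this far. Using only the groups compared could not be applied to the difference of responses. Depth limits PAOX most, at 24 to 52 reads per library.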
